A study of Mus musculus with 4 samples.

Results

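The eIF4A3 binding described here is that of a pair of neighbouring genes on the plus strand of mouse chromosome 5, Gcn1 (older symbol Gcn1l1) and Rplp0. The members were the peaks of a whole-series list that lay between positions 116009000 and 116073000 of the mm9 genome, and a boundary at 116014500 separated Rplp0 from Gcn1. Of the 30763 peaks in the list, 124 met this rule, 123 in Gcn1 and 1 in Rplp0. The stretch was chosen by the number of its peaks and by their fold changes, so the number, fold change and p-value of its peaks are given as a description, with no test. The list carries no gene names, and the names come from the rule.

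The peaks come from enhanced crosslinking and immunoprecipitation (eCLIP), in which ultraviolet light fixes proteins to the RNA they touch before an antibody pulls the protein down. The series compared 2 libraries pulled down with an antibody against eIF4A3 with 2 input libraries made without antibody. All 4 came from J1, an established embryonic stem cell line of strain 129S4/SvJae, grown without feeder cells in serum and leukemia inhibitory factor, with no other treatment than 254 nm light at 400 mJ/cm2. The list gives each peak 1 fold change and 1 p-value and no value per library, so no spread between replicates can be given and the depth behind a peak is unknown. All of these folds and p-values are the authors' deposited values.

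eIF4A3 is a DEAD-box helicase that clamps RNA as part of the exon junction complex, which splicing leaves on messenger RNA shortly upstream of the joined exon ends. Gcn1 encodes a very large ribosome-binding protein that senses stalled and collided ribosomes and is needed for the kinase GCN2 to phosphorylate eIF2α when amino acids run short. Rplp0 encodes the base protein of the ribosomal P stalk, which recruits elongation factors and can itself stimulate GCN2. In the GENCODE M21 annotation, Gcn1 has 58 exons of 51 to 630 nt that sum to 8555 nt, and Rplp0 has 7 exons that sum to 1358 nt. That annotation is on GRCm38 and the peaks are on mm9, so only lengths were taken from it and no position was carried from one build to the other.

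Gaps in the Gcn1 peaks had the lengths of Gcn1 introns. Neighbouring peaks left 71 gaps of at least 1 nt, and 19 of them equalled to the nucleotide the length of an annotated Gcn1 intron when gaps and introns were both read in order from 5′ to 3′. The matched gaps ran from 82 to 6102 nt and accounted for 26.8% of the gaps and 33.3% of the 57 introns. The first Gcn1 peak ended at 116015315 and the next began at 116021418, which left 6102 nt, the length of intron 1 and the longest intron of the gene. The following matches were 3067 nt for intron 2, 522 nt for intron 3 and 2663 nt for intron 5. Long matches far into the gene included 3119 nt for intron 33 and 1475 nt for intron 37, and the last was 305 nt for intron 57. A further 11 gaps exceeded an intron in order by at most 5 nt, 4 of them by 1 nt and 5 by 2 nt, which brought the total to 30 gaps and 52.6% of the introns.

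**Figure D1:**
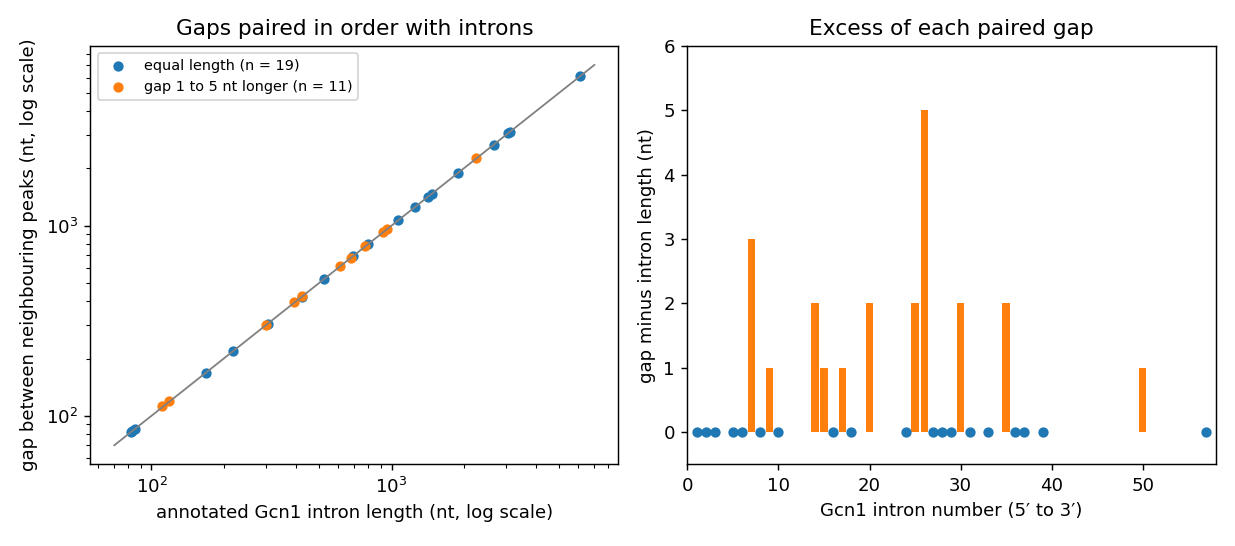
Left, the length of each gap between neighbouring Gcn1 peaks against the annotated length of the intron paired with it in order, both in nt on log scales, with the line of equality. Right, the gap minus the intron length in nt by intron number: 19 pairs are equal and 11 differ by 1 to 5 nt.

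The distances between the matched introns also equalled the annotated ones. From the last base before intron 1 to the last base before intron 57 the list gave 56413 nt, and the annotation gave 56413 nt. Of the 18 distances between successive matched introns, 16 were equal. The other two, from intron 2 to intron 3 and from intron 5 to intron 6, differed by 1 nt in opposite directions. Matches were more frequent in the 5′ part of the gene, with 13 among introns 1 to 29 and 6 among the other 28.

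Of the 58 exons, 32 had an edge marked by such a gap and 6 had both edges marked. All 6 are fully coding. The span between the gaps equalled the annotated exon length for exons 2, 28, 29 and 37. For exons 3 and 6 the span was 63 and 100 nt against annotated lengths of 64 and 99 nt. The sequences of the 4 equal exons are shown because their edges are fixed on both sides by gap lengths, so that the peaks can be laid on the bases. They were read 5′ to 3′ by exon number from the GENCODE M21 transcript Gcn1l1-201 (GRCm38). Capitals mark bases under a listed peak and lower case marks bases under none.
Exon 2: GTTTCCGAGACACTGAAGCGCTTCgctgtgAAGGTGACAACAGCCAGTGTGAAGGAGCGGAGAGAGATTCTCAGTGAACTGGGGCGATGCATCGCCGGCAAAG
Exon 28: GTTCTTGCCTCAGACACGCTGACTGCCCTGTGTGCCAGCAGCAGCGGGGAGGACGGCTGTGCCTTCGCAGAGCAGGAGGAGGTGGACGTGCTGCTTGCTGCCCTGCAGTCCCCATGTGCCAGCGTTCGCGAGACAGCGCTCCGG
Exon 29: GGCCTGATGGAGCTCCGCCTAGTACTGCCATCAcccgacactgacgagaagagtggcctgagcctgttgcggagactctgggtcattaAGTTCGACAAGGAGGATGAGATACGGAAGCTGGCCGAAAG
Exon 37: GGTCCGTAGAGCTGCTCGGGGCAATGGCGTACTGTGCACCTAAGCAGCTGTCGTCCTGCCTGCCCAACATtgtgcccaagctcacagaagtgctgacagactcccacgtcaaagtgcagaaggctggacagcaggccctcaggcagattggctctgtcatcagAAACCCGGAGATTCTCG

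Peaks covered these exons to different extents. Exon 2, at chr5:116021418-116021520 on mm9, held 4 peaks over 97 of its 103 nt, with folds from 18.2 to 25.2. The highest of these folds belonged to the first 7 bases, next to the junction with exon 1, and the highest −log10 p, 44.6, to bases 49 to 103, which end at the junction with exon 3. Exon 28, at chr5:116045302-116045445, was covered over all 144 nt by 4 abutting peaks with folds from 9.03 to 14.3. Its highest fold and its highest −log10 p, 78.9, both lay in bases 72 to 144, the 3′ end of the exon.

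The other two exons were bare in the middle. Exon 29, at chr5:116046865-116046992, held 3 peaks over 73 of 128 nt, and the peak on bases 1 to 33 had both the highest fold, 15.5, and the highest −log10 p, 53.5. Exon 37, at chr5:116054827-116055006, held 3 peaks over 87 of 180 nt, with the highest fold, 13.2, on bases 1 to 70. In exons 28 and 2 the peak of highest −log10 p thus touched the 3′ edge, and in exons 29 and 37 it touched the 5′ edge. Exon 6 was covered over its whole span and exon 3 over 48 of its 63 nt.

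**Figure D2:**
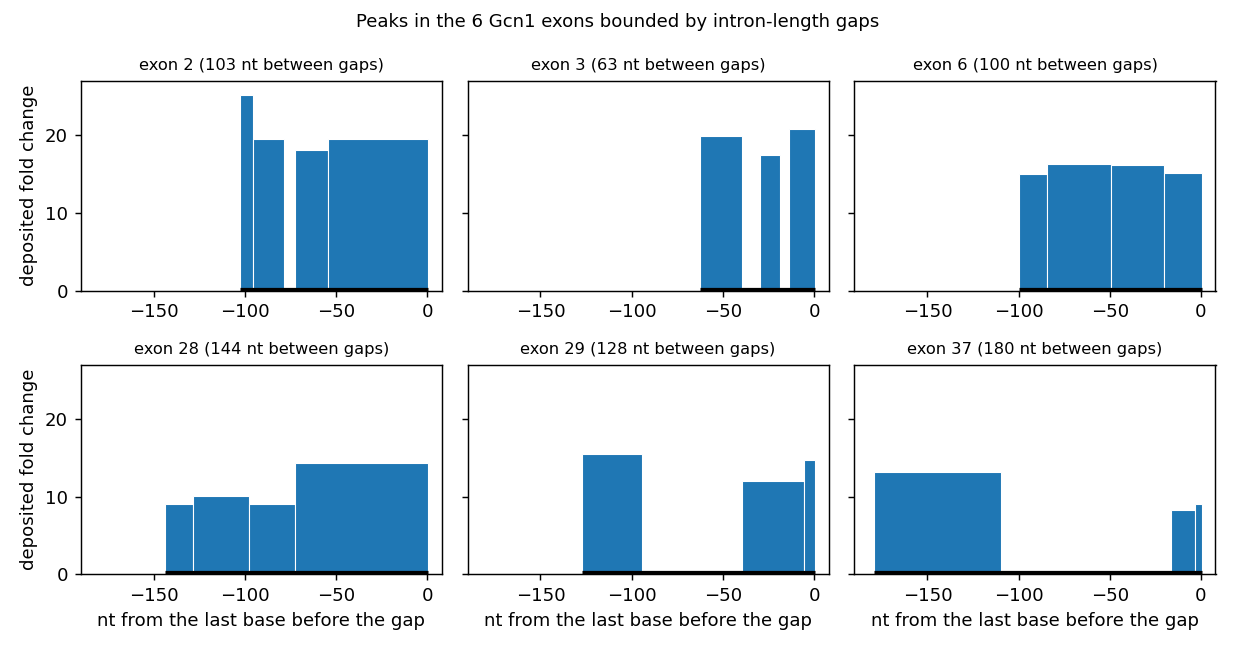
Fold change of each peak (bar height, bar width to scale) against its position in nt from the last base before the downstream gap, for the 6 Gcn1 exons with a matched gap on both sides. The black line is the span between the gaps, which for exons 3 and 6 is 63 and 100 nt against annotated 64 and 99 nt. Exons 6 and 28 are covered throughout, and exons 29 and 37 have peaks at both ends and none in the middle.

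Both sides of the 19 exact junctions were compared as a description. The peak on the 3′ end of the upstream exon had a median of 14.6-fold (range 6.48 to 22.9), and the peak on the 5′ start of the downstream exon had a median of 15.0-fold (range 6.32 to 25.2). The upstream peak had the higher fold in 10 junctions and the downstream peak in 9. The −log10 p was higher upstream in 7 junctions and downstream in 12, with medians of 30.0 and 32.8. Among the 16 upstream exons with more than 1 peak, the peak of highest −log10 p was the one at the 3′ edge in 5. In exons 8, 16, 18 and 31 it ended 3, 5, 6 and 3 nt short of that edge, next to an edge peak of that width. Among the 17 downstream exons with more than 1 peak, the peak of highest −log10 p was the one at the 5′ edge in 8. In exons 25 and 32 it followed an edge peak of 4 and 3 nt. Both counts thus depend on how the listed peaks were divided, and −log10 p went with width, as given below. Peaks covered a median of 57.4% of the upstream exons (range 16.9 to 100.0%) and 75.8% of the downstream exons (range 1.27 to 100.0%). These differences between the sides were not tested. A gap can match an intron only where peaks reach both exon edges, so coverage at the edges was fixed by the choice of these exons.

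Across the whole gene, the 123 Gcn1 peaks covered 3588 nt, equal to 41.9% of the annotated exon length. They spread over 56753 nt, from 116015289 to 116072041. Their widths ran from 2 to 120 nt with a median of 26 nt, and 17 were at most 5 nt wide. Of the 122 neighbouring pairs, 51 (41.8%) abutted with no base between them and none overlapped. Peaks at most 50 nt apart joined into 54 sites. Of these sites 16 were single peaks, and their median width was 68.5 nt. The widest site, from 116047075 to 116047263, measured 189 nt and held 6 peaks. Its last 5 peaks, from 116047147 on, formed the longest abutting run of the gene, with folds of 11.0, 10.6, 9.58, 10.3 and 12.6 in order. The first peak of the site, from 116047075 to 116047101, had 20.6-fold and was set apart from the run in position and in fold.

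Fold changes in Gcn1 lay between 4.59 and 25.5 with a median of 12.0 and quartiles of 8.98 and 16.3. Of the 123 peaks, 100 (81.3%) reached 8-fold with p at most 0.001, against 32.3% of all peaks in the list. At 16-fold with p at most 1e-05 there were 36 (29.3%), against 3.65% of the list. The stretch was chosen for these values, so nothing is read from the excess. The peak nearest above 8-fold had 8.34-fold (116054990 to 116055002) and the nearest below had 7.997-fold (116065409 to 116065427).

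The highest fold of the gene, 25.5, belonged to 35 nt from 116035868 to 116035902, with a −log10 p of 40.1. The 5 nt that follow it, up to 116035907, had 22.9-fold and ended at the matched gap of intron 16. The second, at 25.2-fold, was the 7 nt at the start of exon 2 shown above. Next came abutting peaks from 116029645 to 116029646 and from 116029647 to 116029658, at 23.2-fold and 23.4-fold. The rest of the 10 highest were 21.9-fold at 116033408 to 116033411, 21.2-fold at 116060046 to 116060078, 20.8-fold at 116024637 to 116024650, 20.7-fold at 116059475 to 116059501 and 20.7-fold at 116029902 to 116029903. These 10 were 2 to 35 nt wide, beside a median of 26 nt for all Gcn1 peaks, and 5 of them lay among the first 25 peaks of the gene. The lowest fold, 4.59, was on 41 nt from 116066502 to 116066542, in the 3′ part.

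The peaks of highest −log10 p were wider ones. The highest, 86.4, was on the widest peak of the gene, 120 nt from 116025173 to 116025292, with 19.9-fold. It begins at the matched gap of intron 3, which is the 5′ edge of exon 4. The next were 78.9 in the 3′ end of exon 28, 60.4 from 116045012 to 116045058 (18.9-fold), 59.0 from 116031012 to 116031071 (10.3-fold) and 57.1 from 116043590 to 116043644 (14.0-fold). Next in width after the 120 nt peak were 88 nt from 116029130 to 116029217, at 19.9-fold, and 79 nt from 116042108 to 116042186, at 9.75-fold. Across the 123 peaks, Spearman's rho of −log10 p with width was 0.697 and that of fold with width was -0.061, so width went with p and hardly with fold. The relation was not particular to Gcn1. In the 4 comparison loci described below, rho was 0.673 to 0.726 for −log10 p and -0.152 to 0.087 for fold. Peaks of a gene share the libraries and the transcript and are no independent points.

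Both values were lower toward the 3′ end of Gcn1. The first peak, from 116015289 to 116015315, had 18.5-fold and the last, from 116072034 to 116072041, had 6.32-fold. With the peaks taken in order in 5 groups of 24 or 25, the median fold was 17.5, 11.5, 9.08, 12.0 and 8.75. The ranges overlapped, from 11.3 to 25.2 in the first group and from 4.59 to 21.2 in the last. All 25 peaks of the first group reached 8-fold, and 23, 17, 21 and 14 did in the following ones. The median −log10 p was 33.3, 31.2, 30.0, 26.9 and 18.5. Across peaks, rho with position was -0.528 for fold and -0.328 for −log10 p. Among the 100 peaks past 8-fold it was -0.434 and -0.153. Read coverage along the transcript is unknown, and its part in this order was not tested.

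**Figure D3:**
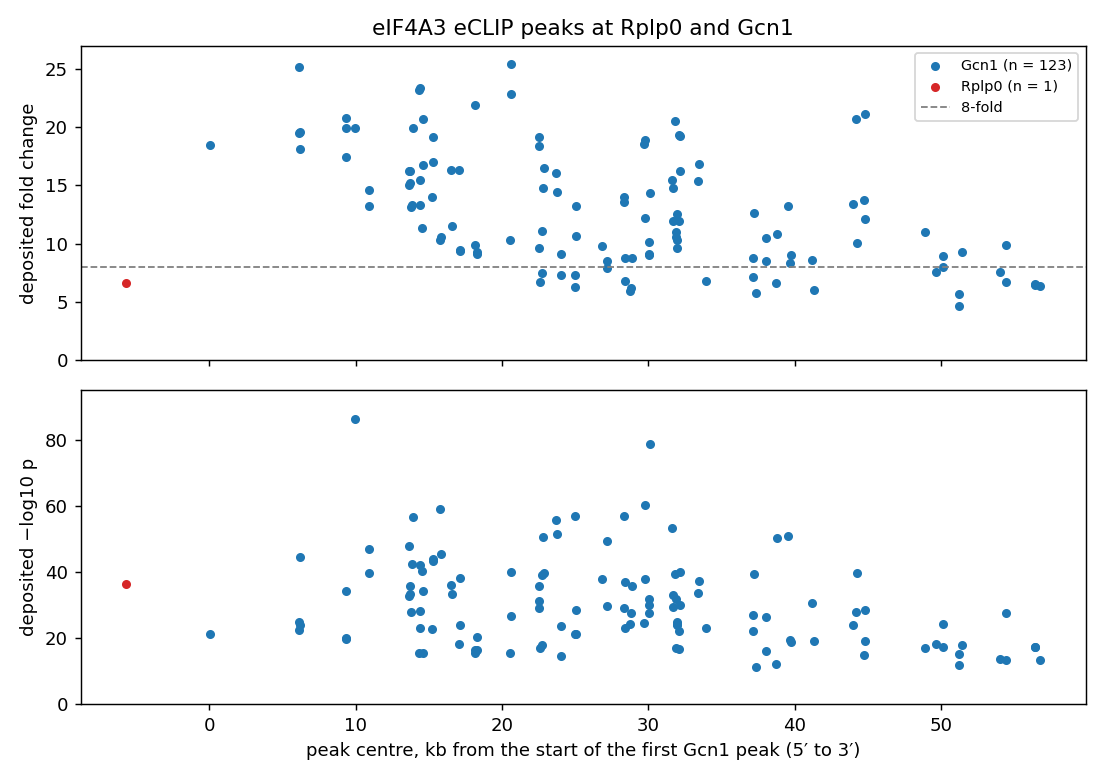
Deposited fold change (top) and −log10 p (bottom) of each peak against the distance of its centre in kb from the start of the first Gcn1 peak; each point is 1 peak and the dashed line is 8-fold. The highest Gcn1 fold, 25.5, is in the 5′ part and the lowest, 4.59, in the 3′ part, where single peaks still reach 21.2-fold. The single Rplp0 peak lies at 6.58-fold.

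**Figure D4:**
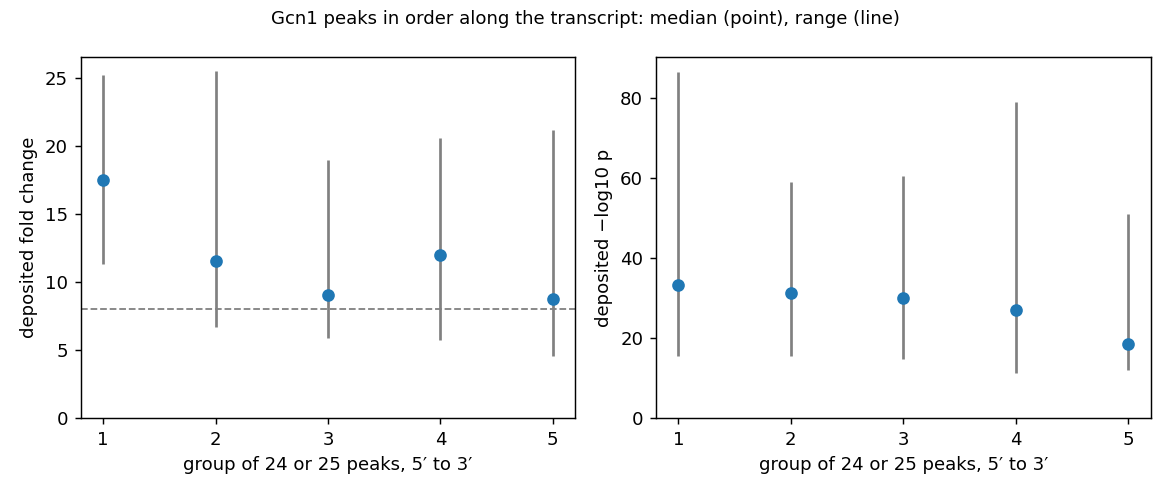
Median (point) and range (line) of the deposited fold change and −log10 p in 5 groups of 24 or 25 Gcn1 peaks in order from 5′ to 3′. The median fold is 17.5 in the first group and 8.75 in the last, with overlapping ranges.

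Some values recurred exactly within Gcn1. The peaks from 116043700 to 116043739 and from 116049237 to 116049275 both had 6.77-fold and a −log10 p of 23.1. The peaks from 116047147 to 116047161 and from 116064200 to 116064224 both had 11.0-fold and 16.9. A −log10 p of 15.6576, which 156 peaks of the list share, was on 3 Gcn1 peaks of 2 to 4 nt, so p does not rank those 3. None of the Gcn1 peaks had the top value of the list, 400.

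Rplp0 carried a single peak, from 116009553 to 116009666. It was 114 nt wide, and only 0.936% of the peaks in the list were at least as wide. Its fold of 6.58 (log2 of 2.72) was close to the list's median of 6.57, below 8-fold and above that of 10 Gcn1 peaks. Its −log10 p of 36.5 was reached by 4.61% of the list and exceeded by 36 Gcn1 peaks. Rplp0 was thus marked by one wide peak of middling fold, while its neighbour carried many narrow peaks of higher fold. The 114 nt equal 8.39% of the annotated Rplp0 exon length, against 41.9% in Gcn1. They are longer than 2 of its 7 exons, and with no gap to compare, the peak could not be placed in an exon. The 2 genes differ in length, and how much of each RNA the cells held is not in the list.

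The nearest peaks outside the pair, on either strand, lay more than 10 kb away. The Rplp0 peak was 5622 nt from the first Gcn1 peak. The nearest plus-strand peak upstream, from 115995382 to 115995389 (21.2-fold, −log10 p of 5.28), was 14163 nt from Rplp0, and the nearest downstream, from 116296354 to 116296369 (4.97-fold), was 224312 nt past the last Gcn1 peak. The minus strand had 0 peaks in the region, and its nearest was 304107 nt away.

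For comparison, the other 4 loci with the most peaks, when peaks within 10 kb on a strand are joined, were those of Huwe1, Mdn1, Vps13d and Dst, long genes for a ubiquitin ligase, a ribosome assembly ATPase, a lipid transfer protein and a cytoskeletal linker. Their names, like those of the pair, are not in the list, and 1 annotated transcript was used for each gene. The gaps of Gcn1 peaks matched 1 to 3 introns of these genes exactly in order, against 19 of its own. Their own introns were matched by their own gaps in 10 of 82 for Huwe1, 9 of 101 for Mdn1, 10 of 69 for Vps13d and 8 of 97 for Dst, or 8.25 to 14.5%, against 33.3% in Gcn1. With gaps up to 5 nt longer than the intron allowed, the counts were 23 (28.0%) for Huwe1, 19 (18.8%) for Mdn1, 18 (26.1%) for Vps13d and 17 (17.5%) for Dst, against 30 (52.6%) in Gcn1. With this allowance the gaps of Gcn1 peaks matched 1 to 6 introns of the other genes. The shares are not like for like. Joining within 10 kb leaves no gap above 10 kb, so longer introns could not match. The longest intron has 28363 nt in Huwe1, 33285 nt in Vps13d and 74326 nt in Dst. In Mdn1 it has 5480 nt and in Gcn1 6102 nt. Peaks covered 3996, 3507, 4011 and 3503 nt in the 4 loci as first named, beside annotated exon lengths of 14579, 17959, 15849 and 23251 nt. For Gcn1 these were 3588 and 8555 nt. Median folds were 6.22, 7.80, 9.79 and 6.52 in the same order, against 12.0 in Gcn1. Gcn1 also had the higher share of abutting pairs, 41.8% against 26.4 to 33.8%. With rho of position and fold at -0.153, -0.080, 0.074 and -0.457, Dst had an order along the gene nearest to that of Gcn1. Among the 795 other groups of at least 10 peaks joined within 10 kb, 9 had a higher median fold than Gcn1. The stretch was chosen for its folds, so nothing is read from its rank or its higher median. The differences between loci were not tested, since the list has no replicate values and peaks of a transcript are not replicates.

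**Figure D5:**
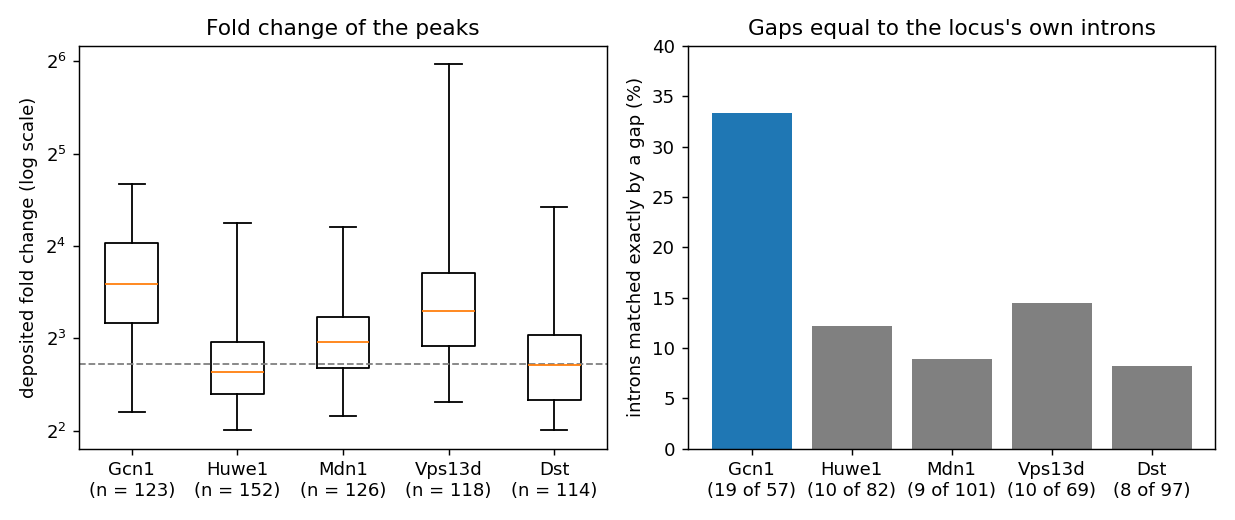
Left, deposited fold change of the peaks (log scale) in Gcn1 and the other 4 loci with the most peaks; the box gives median and quartiles, the whiskers the range and the dashed line the median of the list, 6.57. Right, percent of each gene's annotated introns equal in length and order to a gap between its peaks, 33.3% in Gcn1 and 8.25 to 14.5% in the others.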

How the data were processed

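The measurement was eCLIP of eIF4A3 in J1 cells, 2 pull-down and 2 input libraries, with paired reads of 50 bp per the labels' protocols. Per the submitters' processing notes, the build was mm9 and the tools included STAR 2.6.1b and cutadapt 1.18. What is not given in the sources used here is how peaks were called and tested, which quantities the fold divides and whether libraries were pooled. The deposited list gives a log2 fold change and a −log10 p for each peak, and folds here are 2 to the power of the deposited log2 value.

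Start and end were both counted as part of a peak. Positions are printed as listed. Gaps and annotated introns (GENCODE M21, lengths only, principal transcript with the most exons) were paired by the longest in-order run of equal lengths. On simulated data the method recovered every gap made equal to an intron. All other simulated gaps were longer than any simulated intron, so this could not show how often unrelated gaps are paired. No annotation on mm9 and no mm9 sequence was used. The peaks named were every Rplp0 peak and, in Gcn1, the first, last, 10 of highest fold, 5 of highest −log10 p, 3 widest, the lowest, the longest run and the widest gap. Members, lists and comparisons were chosen with earlier results of these data known, and the intron comparison after the gaps were seen. Tools were scipy 1.17.1, matplotlib 3.10.9, pandas 2.3.3, numpy 2.4.6 and Python 3.11.15.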

Additional observations from a re-analysis of the deposited data

How the results depend on the processing

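No paired analysis was possible because each peak has 1 value for the series, and no replicate could be left out. Merging adjoining peaks took Gcn1 from 123 peaks to 72, its median log2 fold change from 3.58 to 3.74 and its median −log10 p from 27.8 to 31.2. Merging within 50 nt, with the highest value kept, gave 54, 3.78 and 36.7. These rises come with taking the maximum. The 50 nt merge gave a rho with position of -0.600 for log2 fold change and -0.508 for −log10 p. Only peaks past the threshold gave -0.434 and -0.153, and leaving out the first and last peak gave -0.512 for log2 fold change. The share past the threshold was 81.3% in Gcn1 and 0% in Rplp0 at 8-fold, 100% in both at 4-fold, which is the whole list, and 29.3% in Gcn1 at 16-fold. Splitting the genes at the widest gap moved the first Gcn1 peak to Rplp0, which then had 2 peaks, a median log2 fold change of 3.46 and a median −log10 p of 28.8, while the median −log10 p of Gcn1 became 27.9. That gap has the length of Gcn1 intron 1. The intron matches numbered 19 exactly, 30 within 5 nt, 17 among peaks past the threshold and 19 with gaps of at least 60 nt, alternatives chosen after seeing the data. Read depth is not in the list and limits every value to an unknown extent.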
